A study of Homo sapiens with 2 samples.

Results

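RBM12 and RBM12B, a pair of related RNA-binding protein genes, were examined in a transcriptome-wide map of N6-methyladenosine (m6A) in GM12878, an Epstein-Barr virus transformed B lymphoblastoid cell line of human origin. They are 2 of the 47352 gene names in the deposited table. Their members were all table rows filed under these names, 641 of 3335372 windows, with 538 for RBM12 in 4 transcript listings and 103 for RBM12B in 1 listing. For RBM12 the first listing with the most windows, 135, was described, so that each stretch of RNA entered once. The genes were chosen by their window scores and coverage in these same libraries, as genes with long enriched stretches, so their coverage, scores and run lengths are descriptions and carry no test. With the deposited score that description holds for RBM12, whereas RBM12B has a long stretch only when IP and input are compared without dividing by the gene medians. The m6A IP library holds RNA fragments bound by an m6A antibody, and the input library holds fragments without that selection. Both came from fragmented total RNA of GM12878 cells grown in medium with 15% serum, with no other treatment named, and there was 1 library of each kind. No value therefore has a replicate error, and intervals cover counting error only.

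The labels disagree on the source, 1 field giving mouse stem cells and the others the human line. The B cell markers MS4A1, CD79A, CD79B, PAX5 and CD74 lay between 14.3 and 775 in mean scaled input coverage. The 4 pluripotency markers (POU5F1, NANOG, SOX2 and LIN28A) lay between 0.00782 and 0.153. The table corresponded to about 56.9 M reads in the IP and 50.3 M in the input over 1 listing per gene.

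m6A is placed on messenger RNA in the nucleus by a methyltransferase complex built on METTL3 and METTL14, at adenosines in a short consensus sequence, and it is known to be frequent in long exons and around stop codons. Proteins of the YTH family bind it and influence the translation and decay of the RNA. RBM12, also called SWAN, carries several RNA recognition motifs and proline-rich stretches. Its splice variants differ in the leader and encode the same protein, whose coding sequence lies in the last exon. RBM12B is its relative with RNA recognition motifs and is less well studied.

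RBM12 starts at the same base as CPNE1, the gene of copine 1, a calcium-dependent membrane-binding protein, and this matters for how the coverage of its short exons is read. The 250 bases before that start are shown because both genes use them. They lie at chr20:35664901-35665150 on the minus strand of GRCh38.p14 in RefSeq, whereas the window table was made on hg19 and carries no coordinates. Capitals mark TGACGTCA, the cyclic AMP response element, which reads the same on both strands.
RBM12 and CPNE1 upstream sequence: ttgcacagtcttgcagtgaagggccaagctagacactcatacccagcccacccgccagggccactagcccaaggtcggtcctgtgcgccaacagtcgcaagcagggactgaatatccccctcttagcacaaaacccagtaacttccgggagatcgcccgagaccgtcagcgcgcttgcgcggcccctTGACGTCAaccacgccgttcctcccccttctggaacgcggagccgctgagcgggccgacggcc
The element occurred once, 63 bases before the start at its first base, and 1.63% of 34943 RefSeq promoters of the same length held it. Of the 538 RBM12 rows, 17 had input and IP values identical to those of a CPNE1 window, all of them in the short exons 2 and 3 (7 distinct windows). None (0) lay in the long exon described below, but only windows placed alike in both genes can match in this way. In the listing described, the first window of exon 3 had a coverage of 39.2 (IP) against 21.2 (input). Exon 3 differs between listings, and without coordinates it is not known whether this one begins at the shared start.

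Both transcripts had more coverage in the IP than in the input. RBM12 averaged 74.1 in scaled coverage in the IP and 8.40 in the input over its 135 windows. RBM12B averaged 26.1 in the IP and 2.39 in the input over its 103 windows. The log2 ratio of mean IP to mean input, with 1 added to each, was 3.0 in both genes, higher than in 98.1% of the 10756 measured genes (mean scaled input of at least 1 over at least 2 windows), whose median was 0.35. The factor by which each library was scaled is not given in the sources used here, so such a ratio is best read against that median. Judged from the smallest coverage value of each library, a coverage of 1 was about 3.71 reads per base in the IP and 5.84 in the input. A scaled fold is therefore higher than the ratio of the read numbers. Without the added 1, the fold was 8.83 (95% counting interval 8.63 to 9.03) in RBM12 and 10.9 (10.4 to 11.4) in RBM12B, so the equal ratios hold only with 1 added. The genes differed in abundance, RBM12 standing above 76.0% of measured genes in input and RBM12B above 31.9%.

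Almost all of this excess lay in 1 exon of each gene. Both transcripts have 3 listed exons, of which the exon listed first is by far the longest, with 129 windows (about 6500 nt) in RBM12 and 99 windows (about 5000 nt) in RBM12B. A window is 100 nt long and the next one starts 50 nt further on. Distances are counted from the inner edge, the side of the long exon that adjoins the other exons. RBM12 lies on the minus strand, and among minus-strand genes with a single long terminal exon that exon was listed first in 97.5% of 3779 genes, against 2.47% of 3891 plus-strand genes. The long exon of RBM12 is thus its last one and the inner edge is the upstream edge in the RNA.

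In RBM12 the upstream stretch of the long exon formed a single unbroken run of 40 windows, from 50 to 2100 nt, at a window score of 2 or more. The score is a log2 value, the IP relative to its median over the gene divided by the input relative to its median, with 1 added to each number, so that 2 means 4-fold. Over the run the IP coverage ranged from 18.7 to 1212 with a median of 166, and the input coverage from 3.99 to 59.6 with a median of 17.8. The lowest IP value in the run was above the median input in it. The run corresponded to about 48692 reads in the IP and 6300 in the input, a scaled fold of 12.1 (11.8 to 12.5). It held 96.9% of the IP coverage of the transcript and 70.4% of the input coverage. All 40 enriched windows of RBM12 lay in this run, which is 29.6% of its windows, against a background of 5.75% of windows in measured genes and 2.64% of all windows.

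**Figure D1:**
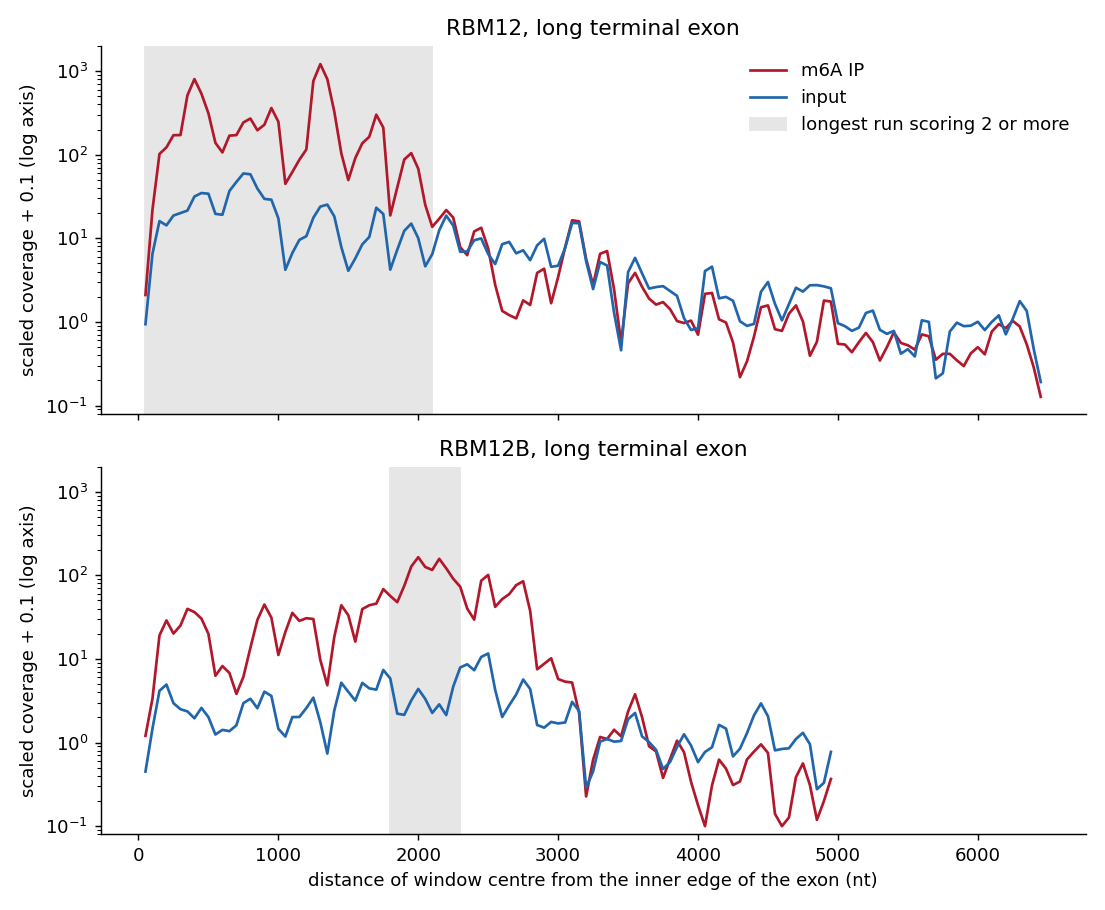
Scaled coverage plus 0.1 (log axis) in the m6A IP (red) and input (blue) libraries along the long exon of RBM12 (top) and RBM12B (bottom), by distance of the window centre from the inner edge in nt, with 1 library each and no replicate. The grey band is the longest run with a window score of 2 or more, 40 windows in RBM12 and 9 in RBM12B. In both genes the IP line stands above the input line in the inner part of the exon. Further out it meets the input line and in places lies below it.

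The RBM12 run had 5 local maxima of IP coverage, each the highest window within 3 windows on either side. The highest began 1250 nt from the inner edge, where IP coverage was 1212 and input coverage 23.9, a fold of 50.7 (45.8 to 56.4) and a score of 6.27. The next began at 350 nt, with 803 in the IP and 31.5 in the input, a fold of 25.4 (23.2 to 27.9). These 2 maxima stood clear of the others, whose folds were 12.5 (900 nt), 13.0 (1650 nt) and 7.0 (1900 nt). Between them the coverage dipped without falling below the threshold. The deepest dip was to 18.7 in the IP and 4.12 in the input at 1750 nt, followed by 44.7 and 4.10 at 1000 nt and 49.6 and 3.99 at 1450 nt. Input was not flat either, and it was highest at 700 nt, at 59.6, where the IP had 243 and the score was 2.67. The strongest enrichment and the highest input were therefore at different places.

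The run ended next to the exon edge on the inner side and by a gradual decline on the outer side. On the inner side the last window inside scored 2.28, with 21.9 in the IP and 6.44 in the input, and the 1 remaining window at the exon edge scored 1.36, with 2.0 and 0.839. On the outer side the last window inside scored 2.90, with 25.1 in the IP and 4.52 in the input, and the next one outward 1.65, with 13.6 and 6.36. Scores of 1.09 and 0.87 followed, with 17.0 and 21.7 in the IP and 12.4 and 18.6 in the input. Beyond the run the 88 outer windows together had a fold of 0.83 (0.778 to 0.892), with median values of 0.933 for IP coverage and 1.92 for input coverage. The lowest scores of the gene were also here. In 3 adjoining windows between 2550 and 2750 nt the score was -1.25, -1.58 and -1.40, where IP coverage was 1.0 to 1.25 and input coverage 6.51 to 8.96. From 2500 to 3050 nt, the fold of IP over input was 0.325 (0.262 to 0.399).

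RBM12B was enriched over a longer share of its transcript, but its score broke this stretch into short pieces. At a score of 2 or more it had 16 windows, 15.5% of 103 against the background of 5.75%, in 3 runs of at least 2 windows and 1 single window. The longest run had 9 windows, from 1800 to 2300 nt, with IP coverage of 47.7 to 165 (median 121) and input coverage of 2.03 to 4.57 (median 2.76). The lowest IP value of the run was above its highest input value. The run corresponded to about 5149 reads in the IP and 207 in the input, a fold of 39.1 (34.0 to 45.1). Its highest score was 3.84, against 6.27 in RBM12. The folds of the 2 runs are not compared, because the same score stands for a higher ratio of IP to input in RBM12B than in RBM12.

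The other pieces of RBM12B were a run of 4 windows at 2550 to 2800 nt, with a fold of 19.7 (16.2 to 24.2), a run of 2 at 300 to 450 nt, with 18.7 (13.0 to 27.7), and the single window at 1050 nt, with 18.6 (11.0 to 34.0). They rest on fewer input reads, about 109, 32 and 15. Windows between these pieces were also covered far more in the IP. At the local maximum beginning 2450 nt from the inner edge, IP coverage was 101 and input coverage 11.5, a fold of 8.76 (7.48 to 10.3), and yet the score was 1.47. Just outside the longest run the scores were 1.51 on the outer side, with 73.0 in the IP and 7.80 in the input, and 1.53 on the inner side, with 56.6 and 5.74.

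The genes differ in the medians that the score divides by. In RBM12 the median over windows was 2.23 for the IP and, taken separately, 4.10 for the input, which adds 0.66 to every log2 ratio. In RBM12B the medians were 7.41 for the IP and 1.85 for the input, which takes 1.56 from every log2 ratio. The log2 ratio of the medians, with 1 added, was higher in RBM12B than in 96.7% of measured genes and higher in RBM12 than in 7.94%. With the plain log2 ratio of IP to input, again with 1 added, the genes were close in longest run and in peak. Their shares of windows at 2 or more, given below, differed. The longest run at 2 or more was 21 windows in RBM12 and 20 in RBM12B, and the highest mean of 2 neighbouring windows was 5.49 in RBM12 and 5.37 in RBM12B. The corresponding score was 6.14 (6.01 to 6.28) in RBM12 and 3.80 (3.42 to 4.21) in RBM12B.

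**Figure D2:**
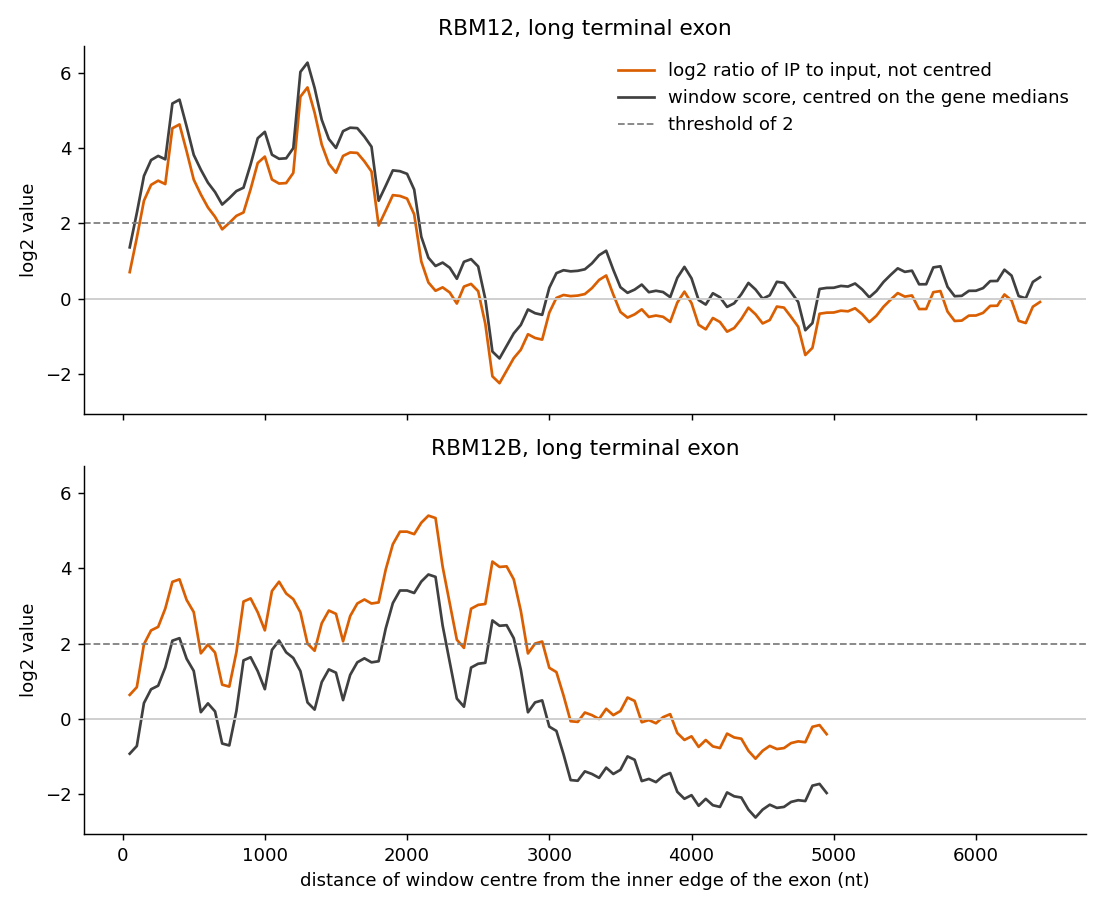
Log2 ratio of IP to input with 1 added (orange) and the deposited window score (dark grey) along the long exon of RBM12 (top) and RBM12B (bottom), by distance from the inner edge in nt, with the threshold of 2 dashed and 1 library of each kind. The score lies 0.66 above the ratio in RBM12 and 1.56 below it in RBM12B, so most of the RBM12B stretch from 150 to 3000 nt drops below the threshold.

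On the plain ratio, 47 of 103 RBM12B windows (45.6%) and 37 of 135 RBM12 windows (27.4%) reached 2, against 7.72% of windows in measured genes. In RBM12B these 47 lay among 56 neighbouring windows from 150 to 3000 nt. In RBM12 all 37 lay in the run of 40, and the 3 windows of it that did not reach 2 had plain ratios of 1.94, 1.84 and 1.62. The folds by successive stretches of 10 windows show the same extent. In RBM12 they were 14.0, 6.01, 28.0 and 10.6 out to 2050 nt, then 1.49 in the next stretch, and between 0.325 and 1.11 beyond. In RBM12B they lay between 7.06 and 16.6 in the 6 stretches out to 3050 nt, then at 1.53, 1.08, 0.306 and 0.22. The outer part of RBM12B had low scores, with 17 of 103 windows at -2 or less against a background of 0.329%. The gene medians take 1.56 from each of these scores, and the plain ratios of the 17 windows lay between -1.05 and -0.46. IP coverage in the outermost 2 stretches had medians of 0.456 and 0.0996, and input coverage 1.28 and 0.738.

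RBM12's run was the longest of all 10756 measured genes, of which 44.2% had a run of at least 2 windows. Only this 1 gene (0.0093%) reached 40 windows. A run of at least 9 windows, the length in RBM12B, was found in 10.1% of measured genes. Without centring, runs of at least 21 windows were found in 1.16% and of at least 20 windows in 1.51%. Long exons give room for long runs, and the same counts were taken over the 434 measured genes whose longer terminal exon had at least 99 windows. Their longest run had a median of 7 windows. A run of at least 2 windows occurred in 82.5% and one of at least 9 in 42.9%. A run of at least 40 windows occurred in 0.23% of them, which is RBM12 itself. An uncentred run of at least 20 windows occurred in 7.14% of them and one of at least 21 in 5.3%. These shares describe genes chosen for their runs, and nothing is read from them.

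**Figure D3:**
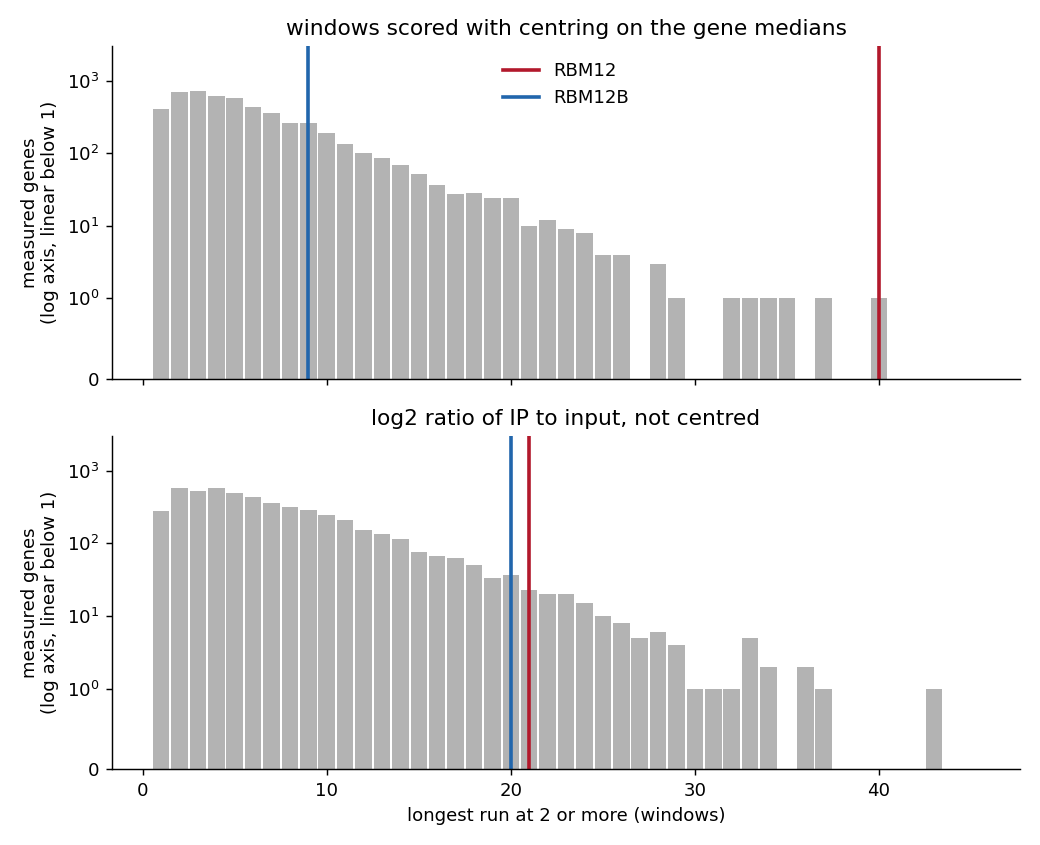
Number of measured genes (symmetric log axis) by longest run of windows at 2 or more, for the centred score (top) and the plain log2 ratio of IP to input (bottom), with RBM12 in red and RBM12B in blue. The lines stand at 40 and 9 windows in the top panel and at 21 and 20 windows in the bottom panel.

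The genes nearest to RBM12 in run length were YTHDF3 with 37 windows, EPM2AIP1 with 35, NUFIP2 with 34, PURB with 33 and SSH2 with 32. YTHDF3 encodes a cytoplasmic reader of m6A and PURB a single-stranded nucleic acid binding protein. These runs lay in an internal exon in YTHDF3 and NUFIP2, in single-exon transcripts in EPM2AIP1 and PURB, and in a terminal exon in SSH2. Mean IP coverage over the 5 runs was between 26.9 and 114, and mean input coverage between 2.91 and 7.34. RBM12 was higher on both, at 242 and 19.96 over its run, which is a difference in coverage and not in its ratio. Over its run SSH2 had 114 in the IP and 6.22 in the input, a higher ratio than in RBM12. PURB had 26.9 and 2.91, a lower one. Without centring the runs of YTHDF3 (37), NUFIP2 (34), SSH2 (33) and EPM2AIP1 (28) were longer than the 21 of RBM12, and that of PURB was 12. The genes nearest to RBM12B, with the same run of 9 windows and the nearest share of the transcript, were DDX21, DLGAP4, LHFPL2, SUFU and TBC1D27. Their gene-wide log2 ratios of IP to input lay between 0.59 and 2.23, below the 3.0 of RBM12B. They were matched on the centred run, while the log2 ratio of the gene medians was 1.56 in RBM12B and -0.71 to 0.73 in them. That choice by itself favours a higher ratio in RBM12B, and nothing is read from the difference.

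Among 41 other genes with RBM names and of the RBMS and RBMX groups, all found in the table, 31 were measured and 21 of these had a run of at least 2 windows (67.7%, against 44.2% of measured genes). Their median gene-level score, the highest mean of 2 neighbouring windows, was 2.54, against 1.81 over all measured genes, and their median log2 ratio was 0.81. None (0) had a run as long as RBM12's, with or without centring, and none (0) had an uncentred run of 20 windows. Such runs were present in only 0.0093%, 1.16% and 1.51% of measured genes, so nothing is read from their absence among 31. Centred runs of 9 or more windows were present in 5 of the 31, against 10.1% of measured genes. The longest were 18 windows in RBM6, 14 in RBM15B, an adaptor of the m6A methyltransferase, and 13 in RBM33. The lowest gene-level scores were 0.66 in RBM42 and 0.99 in RBM5, a splicing regulator, both with no enriched window. RBM15, the other adaptor of the methyltransferase, chosen after its value was seen, was the 1 gene of the list whose gene-wide log2 ratio, 4.01, exceeded that of RBM12, and its run was 6 windows with centring and 17 without. Its gene medians had a log2 ratio of 3.03, a shift in the same direction as the 1.56 of RBM12B but larger.

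**Figure D4:**
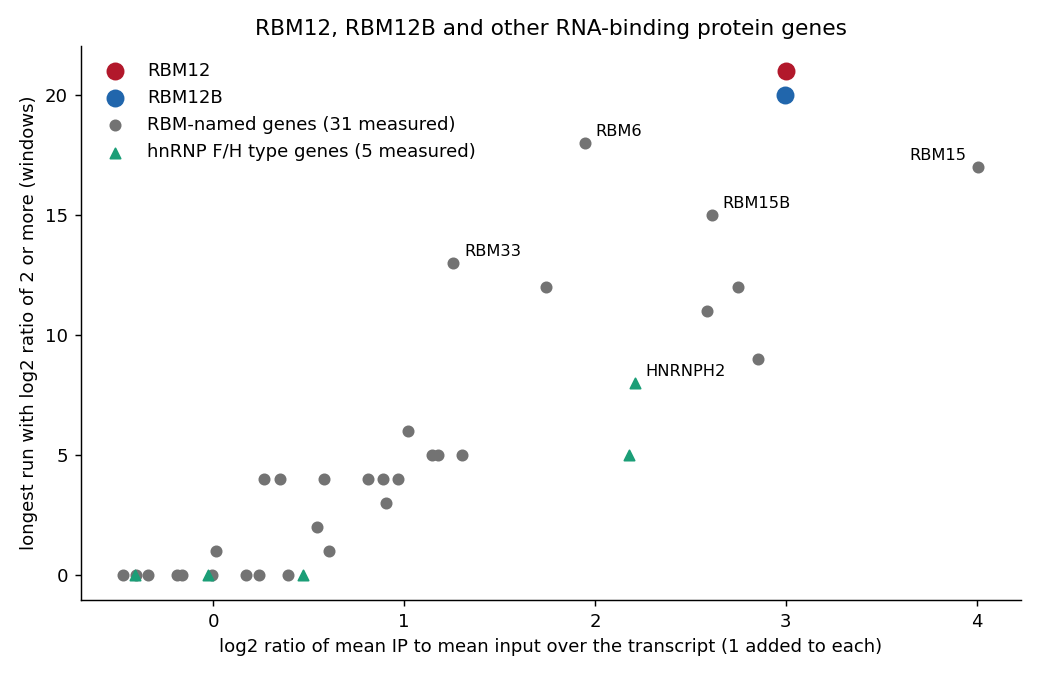
Longest uncentred run (windows with a log2 ratio of IP to input of 2 or more) against the log2 ratio of mean IP to mean input over the transcript, for RBM12, RBM12B, 31 measured RBM-named genes and 5 measured genes of hnRNP F/H type, from 1 library of each kind. RBM12 and RBM12B share a ratio of 3.0 with 1 added and have runs of 21 and 20 windows, above the 18 of RBM6.

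The RNA recognition motifs of RBM12 resemble those of the hnRNP F/H proteins, which bind G-rich RNA in splicing. Of 7 genes of that type 5 were measured and 2 had a run of at least 2 windows (40%, against 44.2% of measured genes). They were HNRNPH2, with 7 windows and a gene-level score of 4.84, and HNRNPF, with 5 windows and 3.03. HNRNPH1 (1.20), HNRNPH3 (1.11) and GRSF1 (0.72), which encodes a mitochondrial RNA-binding protein, had no enriched window. None (0) came near the uncentred runs of RBM12 and RBM12B, the longest being 8 windows. Uncentred runs of at least 20 windows occurred in 1.51% of measured genes, so nothing is read from their absence among 5.

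The coverage of RBM12B was not shared with the antisense gene listed beside it. RBM12B-AS1 and its older name C8orf39, both in the table, had mean scaled coverage of 0.0133 and 0.0144 in the IP and 0.0255 and 0.0275 in the input, and neither had a window with the same nonzero values as RBM12B. CPNE1, which overlaps RBM12, averaged 14.8 in the IP and 14.9 in the input, and its longest run was 2 windows.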

How the data were processed

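Per the submitters' processing notes, reads were aligned with TopHat 1.1.3 to hg19; no source names the coverage program or the annotation. The deposited coverage and its gene medians are a signal scaled by the authors by an unstated factor for each library. The deposited window score is a log2 value, and recomputing it with a pseudocount of 1 gave no difference above 1e-09 (0 windows). Coverage values (100% within 0.01 step) were whole multiples of 1 step per library, and an isolated read took 37 steps, from which read numbers were estimated. Labels' protocols name a strand-keeping dUTP library; whether coverage used strand is not stated.

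Values were computed with pandas 2.3.3 and numpy 2.4.6 under Python 3.11.15, intervals with scipy 1.17.1 and figures with matplotlib 3.10.9. Enriched means a score of 2 or more, and a run is a stretch of neighbouring enriched windows on 1 listing. Folds are scaled ratios of estimated reads, each window of a stretch counted over its 50 nt step and each local maximum over its 100 nt, with exact (Clopper-Pearson) 95% intervals conditional on their sum; intervals of gene-level scores leave out the error of the medians. The run finder was tried on simulated data with even planted runs and independent windows, unlike those here, and no result rests on it. With 1 library per group no test across samples was possible. Genes, lists and settings were chosen with earlier results of these data known. Similar genes were the 5 measured ones nearest in run length, ties going to the nearest share of the transcript. From each list the 3 longest runs and 2 lowest gene-level scores were named. Thresholds, pseudocounts, centring, listings and an input minimum were varied. Sequences are from RefSeq, where RBM12 and CPNE1 matched by symbol. Of the B cell markers checked, 1 is not reported here.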

Additional observations from a re-analysis of the deposited data

How the results depend on the processing

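No paired analysis was possible because each group has 1 library. Of the alternatives, 2 were chosen after seeing the data, namely centring on 1 value for all genes and taking gene medians over windows with at least 10% of the transcript's highest input. Without centring, the longest run was 21 windows in RBM12 and 20 in RBM12B, gene-level scores were 5.49 and 5.37, and RBM12B had 47 enriched windows. Centred on 1 value for all genes, gene-level scores were 5.62 in RBM12 and 5.50 in RBM12B, and RBM12B had 50 enriched windows. The longest run was then 27 windows in RBM12 and 29 in RBM12B, the reverse of the order with the deposited score. With medians over covered windows, both genes kept a run of 3 and 3 enriched windows, with gene-level scores of 2.77 in RBM12 and 2.24 in RBM12B. The windows behind those medians were 54 in RBM12, 35 of them in its run, and 70 in RBM12B, 9 of them in its run. These medians were 104 (IP) and 15.0 (input) in RBM12, and 29.3 and 2.48 in RBM12B. The score divides by them, so a higher ratio of medians lowers every score of the gene by definition. A threshold of 3 gave RBM12 a run of 18 and RBM12B 7 enriched windows, and a threshold of 1 gave RBM12B a run of 15 and 38 enriched windows. A pseudocount of 5 gave gene-level scores of 5.57 in RBM12 and 3.42 in RBM12B, and one of 0.1 gave 6.39 in RBM12. The gene-wide log2 ratio was 3.14 in RBM12 and 3.45 in RBM12B with no pseudocount, and 3.06 and 3.17 over windows with an input of at least 1. Including the RBM12 run of 27, 34 values moved by less than 1.5 times (counts) or stayed within the counting interval, and 26 moved by more. None (0) changed sign, which run lengths and counts cannot do. RBM12B has 1 listing, so the alternative listing was run for RBM12 only. Input depth limits RBM12B most, with about 1945 reads in all against 8943 in RBM12.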

Other observations

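Input coverage along the long exon was uneven in both genes. In RBM12 the median input by stretches of 10 windows was 19.3, 33.1, 9.98 and 10.1 out to 2050 nt from the inner edge, 8.12 and 6.80 in the next 2 stretches, and between 0.693 and 0.899 in the outermost 3. In RBM12B it lay between 1.99 and 5.90 in the inner 6 stretches and between 0.738 and 1.28 in the outer 4. In RBM12, 35 of 135 windows had an input below 1, and in RBM12B 27 of 103.

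RBM12B had 7 local maxima of IP coverage, beginning at 300, 850, 1050, 1400, 1950, 2450 and 2700 nt from the inner edge, with coverage of 39.6, 44.6, 35.5, 43.8, 165, 101 and 84.8 in the IP and 2.26, 3.96, 1.92, 5.09, 4.28, 11.5 and 5.57 in the input.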
